A study of Drosophila melanogaster with 3 samples.

Results

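CG10209 (FBgn0033971) is a protein-coding gene of Drosophila melanogaster on 2R, 14846064 to 14848366 of the dm6 build, minus strand, and its own product was the protein precipitated here. Its locus was taken as every region whose summit, the position of highest signal given by the authors, lay in the gene or within 20 kb of either end of it. This gave 58 regions of the 126307 in the 5 dm6 lists: 3 of 6307 in the list of peaks kept by the irreproducible discovery rate (IDR), 10 of 30000 in the pooled list, 17 of 30000 in replicate 1, and 14 of 30000 in each of replicates 2 and 3. The 3 IDR peaks are also among the 10 pooled regions and carry the same signal values, so they add no regions of their own.

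The study is a chromatin immunoprecipitation with sequencing (ChIP-seq), which maps where a protein sits on DNA, from embryos of 0 to 24 h with the sexes mixed. All samples form 1 group: the transgenic strain CG10209-GFP, whose C-terminal green fluorescent protein (GFP) tag on CG10209 was the target of the antibody, in 3 biological replicates. No other strain, stage or treatment is compared, so this section describes positions and ranks and gives no p-value. The labels give neither the promoter that drives the tagged gene nor how much flanking sequence the transgene carries.

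CG10209 is known by its annotation number, and RefSeq describes its product as an uncharacterized protein. A transcription start is where RNA polymerase begins a gene, and the promoter is the short stretch of DNA around it. In the compact fly genome many genes sit head to head, with a pair of starts facing away from each other across a short gap, and such a divergent pair shares the stretch between the starts. In a transgenic line, reads from a tagged copy of a gene and from the endogenous copy align to the same place, and region lists do not separate them. No region of this arm is shown as sequence here, so the locus is given by positions, distances, signals and ranks.

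The gene is small and lies in a crowded stretch. It spans 2303 bp, has 3 exons and 2 annotated transcripts that share 1 start at 14848366, and encodes 501 codons in the first transcript and 530 in the second. Only the last 3 bases of exon 1 (14848200 to 14848366) are coding, and the other 164 bases are 5′ untranslated. SMC2, which encodes a subunit of the chromosome-compacting condensin complex, ends 254 bp before the CG10209 start. NaPi-T, a sodium-dependent phosphate transporter gene, begins 189 bp after its end. Starts of 9 coding genes lie in the 42303 bp of the window, against a median of 8 (quartiles 5 and 11) in windows of that length centred on each of 13968 coding genes.

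Tagged CG10209 was mapped at its own start. The IDR peak there ran from 14848104 to 14848569, with its summit at 14848359, 7 bp inside exon 1 and so within the 5′ untranslated sequence. Its signal value, the authors' enrichment score, was 2040, and it ranked 116 of 6307. Of all coding genes, 21.5% had an IDR summit within 500 bp of a start (3004 of 13968), and CG10209 took place 108 among them and place 27 of the 557 on 2R. Counting itself, 0.773% of coding genes had a promoter region of this rank or better in the pooled list.

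The same region stood near the top of each replicate list. Replicate 1 had a signal of 532 and rank 226, replicate 2 a signal of 754 and rank 46, and replicate 3 a signal of 776 and rank 121, each of 30000. Signal scales differ between lists, so only the ranks can be set side by side. As a share of the list the rank was 0.753% in replicate 1, 0.153% in replicate 2 and 0.403% in replicate 3, or 0.437% ± 0.301 (SD, n = 3). Replicate 2 placed it highest and replicate 1 lowest. Among coding genes its promoter took place 225 in replicate 1, 35 in replicate 2 and 116 in replicate 3.

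The position recurred closely. The summit lay 8 bp downstream of the CG10209 start in replicates 1 and 3 and 18 bp upstream of it in replicate 2, a range of 26 bp and an SD of 15.0 bp (n = 3). Over the 5354 IDR peaks that had a summit within 150 bp in all 3 lists (84.9% of 6307), the median range was 42 bp (quartiles 22 and 72), and 27 bp among those of rank 1167 or better. The spread at CG10209 was thus near that of other high peaks. Of the 2701 IDR peaks within 500 bp of a start, 19.2% had the summit at or downstream of the nearest start, as CG10209 did in the pooled data, although its summit moved across the start between replicates.

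The other IDR peaks of the locus both lay upstream of CG10209, in gaps between divergent starts. One, at 14852630 to 14852890 with its summit at 14852730, sat between SMC2 and Ercc1, which encodes a subunit of the DNA repair nuclease that cuts beside damaged bases. Its summit was 77 bp upstream of the SMC2 start and 211 bp upstream of the Ercc1 start, in a gap of 288 bp. The second, at 14855203 to 14855495 with its summit at 14855345, sat between Ciao1, a gene for the assembly of iron-sulfur proteins in the cytosol, and HPS1, the fly counterpart of a human gene of lysosome-related organelle formation. Its summit was 84 bp upstream of the HPS1 start and 297 bp upstream of the Ciao1 start, in a gap of 381 bp. All 3 IDR peaks of the locus were therefore promoter peaks, where 42.8% of IDR peaks are, and 2 of the 3 lay between divergent coding starts, where 12.7% of IDR peaks do. With 3 peaks, these shares describe the locus and do not set it apart.

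**Figure D1:**
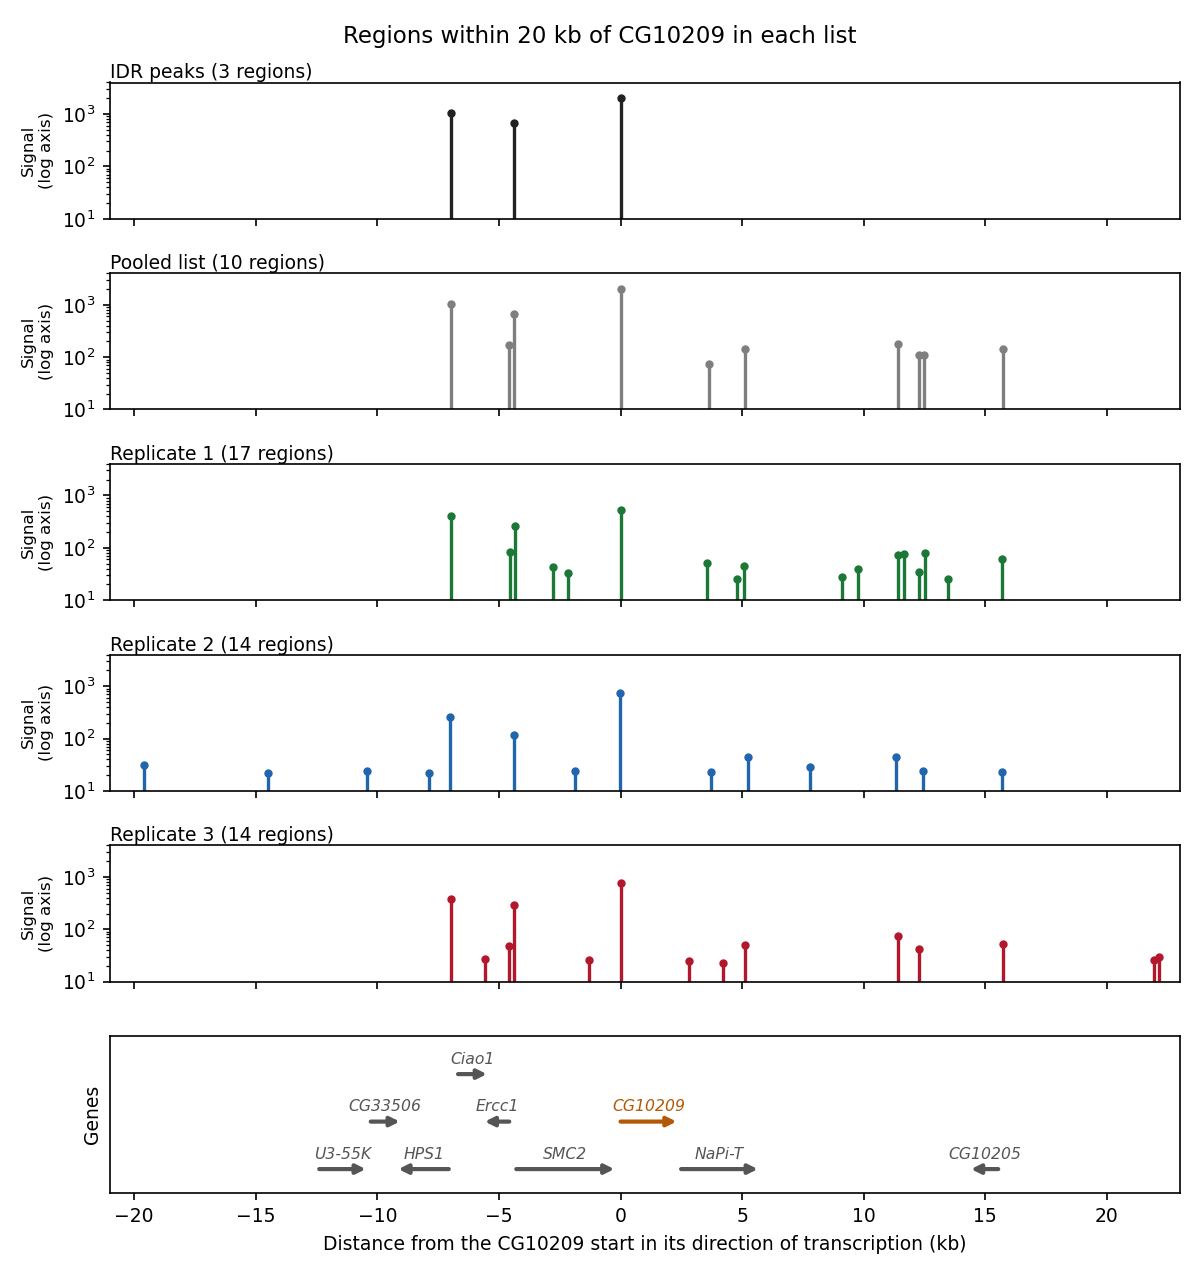
Signal of every region within 20 kb of CG10209 (vertical log axis, authors' units, scales differ between lists) against the distance of its summit from the CG10209 start in kb, upstream to the left, in 5 lists; arrows below show the genes and their directions. Tall regions recur at the CG10209 start and at about 4.364 and 6.979 kb upstream in the pooled list and all 3 replicates, and the other regions have lower signals.

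Both divergent gaps had regions in every replicate. At SMC2 and Ercc1 the signal was 662 in the pooled list (rank 1167), 262 in replicate 1 (rank 889), 118 in replicate 2 (rank 2626) and 287 in replicate 3 (rank 969). At Ciao1 and HPS1 it was 1048 in the pooled list (rank 506), 405 in replicate 1 (rank 394), 262 in replicate 2 (rank 653) and 382 in replicate 3 (rank 561). As a share of the list the ranks were 4.98% ± 3.27 and 1.79% ± 0.438 (SD, n = 3). Replicate 2 ranked the SMC2 and Ercc1 region well below the other replicates, and its SD in percent of the list was the highest of the 3 peaks. Relative to its mean rank its SD was about as large as that of the CG10209 region.

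**Figure D2:**
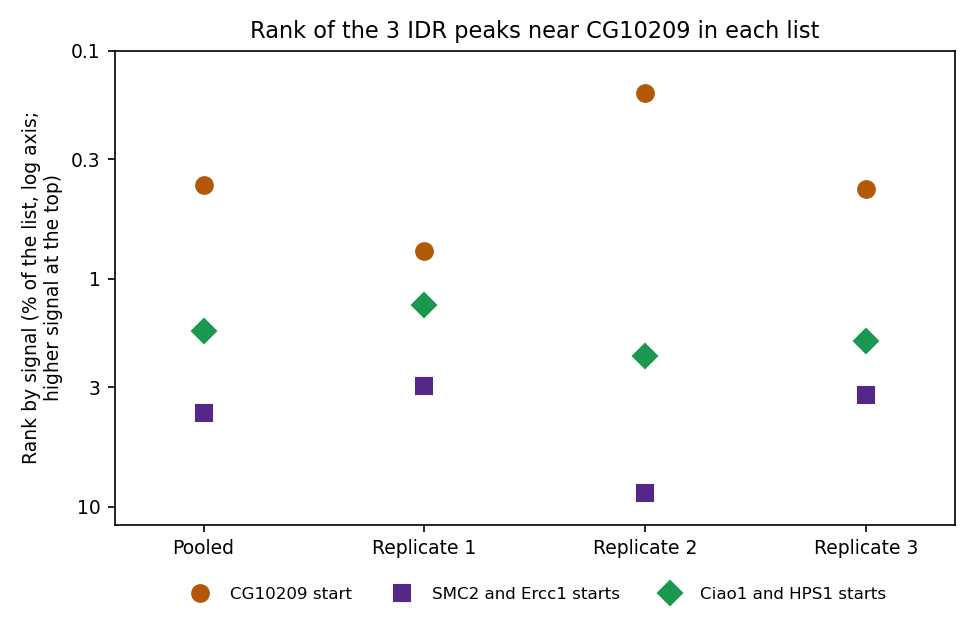
Rank by signal, as a percent of the 30000 regions of each list (log axis, highest signal at the top), of the 3 IDR peaks in the pooled list and each replicate. The order CG10209, then Ciao1 and HPS1, then SMC2 and Ercc1 is the same in all 4 lists, and replicate 2 spreads the 3 peaks furthest, from 0.153% to 8.75%.

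The order of the 3 peaks was the same in all lists, but the gaps between them were not. Within a list, the signal at the CG10209 start over that at Ciao1 and HPS1 was 1.95 in the pooled list, 1.31 in replicate 1, 2.88 in replicate 2 and 2.03 in replicate 3, or 2.08 ± 0.784 (SD, n = 3). Over SMC2 and Ercc1 it was 3.08 in the pooled list, 2.03 in replicate 1, 6.39 in replicate 2 and 2.70 in replicate 3, or 3.71 ± 2.35 (SD, n = 3). The last of the ratios, Ciao1 and HPS1 over SMC2 and Ercc1, was 1.70 ± 0.463 (SD, n = 3). Replicate 2 had the highest value of each ratio, so the size by which CG10209 exceeded its neighbours depended on the replicate, while its direction did not. A ratio removes a difference of scale between lists only where that difference is a constant factor, which was not tested. Without replicate 2 the first ratio lay between 1.31 and 2.03 and the second between 2.03 and 2.70.

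Of the neighbouring summits, one was placed more closely than that of CG10209 and the other less closely. Replicate summits at SMC2 and Ercc1 lay within 11 bp of the IDR summit, with a range of 15 bp. Those at Ciao1 and HPS1 lay within 37 bp, with a range of 63 bp, nearest the HPS1 start in replicate 2. In each replicate the summit stayed on the SMC2 side of the first gap and on the HPS1 side of the second. These peaks were 261 bp and 293 bp wide, and 25.5% of IDR peaks are narrower than 300 bp, while the CG10209 peak was 466 bp wide.

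**Figure D3:**
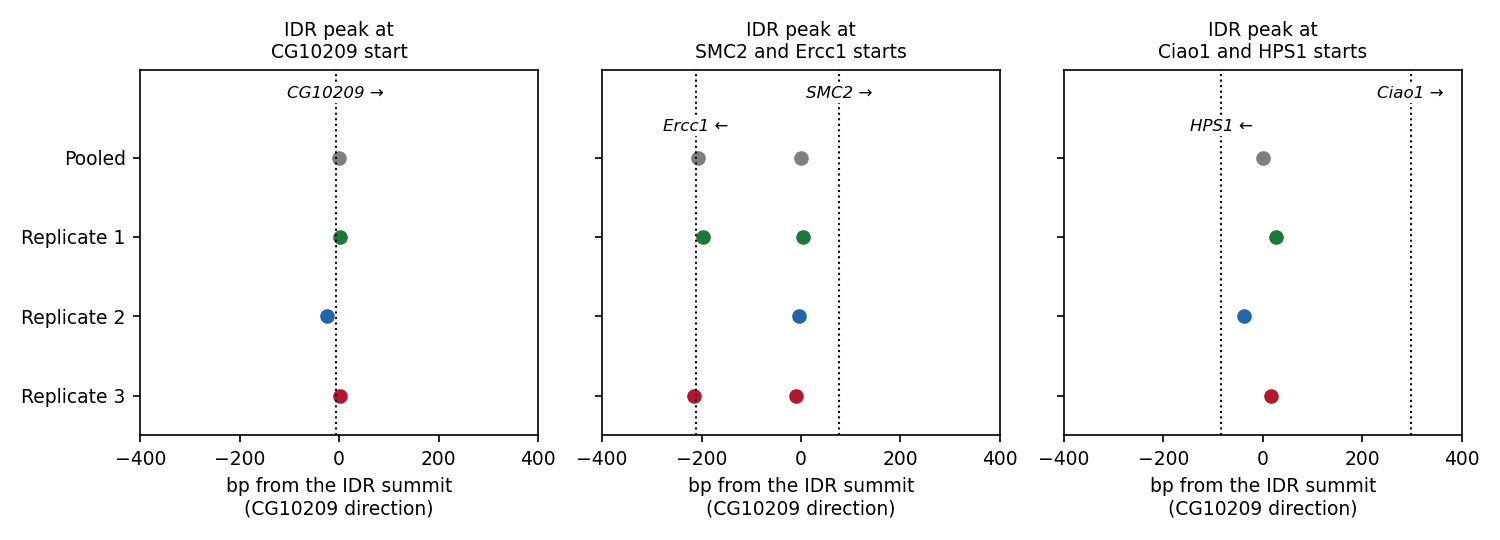
Summits of the pooled list and each replicate within 400 bp of the 3 IDR summits (horizontal axis, bp in the direction of CG10209, 1 row per list), with transcription starts as dotted lines and arrows for the direction of each gene. Summits stack within 26, 15 and 63 bp at the 3 peaks, and a separate region sits at the Ercc1 start in all but replicate 2.

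Ercc1 also had a region at its start that was not an IDR peak. In the pooled list its summit was 3 bp upstream of that start (signal 171, rank 7369, −log10 q 2.33, where q is the authors' false discovery rate). Replicate 1 had it 13 bp upstream at rank 4204 and replicate 3 had it 5 bp downstream at rank 11386. Replicate 2 had no summit within 150 bp of it. Its nearest summit, 204 bp away, was that of the SMC2 and Ercc1 region. In replicate 2 that region ran from 14852506 to 14852961 and so covered the Ercc1 start at 14852941. In the pooled list the interval of the Ercc1 region overlaps that of the larger peak, so the regions share sequence. The replicate 2 interval was 456 bp wide and the pooled Ercc1 interval 444 bp. All regions of the window outside the IDR peaks had these same widths in those lists. Such edges may follow a set width, so the overlaps do not show signal at the Ercc1 start.

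The rest of the locus held regions of lower rank on the far side of CG10209. At 11.423 kb downstream, in sequence outside any gene, the pooled list had a signal of 181 at rank 6867 with −log10 q of 2.675. It recurred in all 3 replicates, with rank 4801 in replicate 1, 11176 in replicate 2 and 6794 in replicate 3. Its −log10 q there was 1.662, 1.477 and 3.434 in that order, so only replicate 3 reached 2. At CG10205, a coding gene, a region 210 bp upstream of the start had a pooled signal of 142 and rank 9068, and ranks of 5926, 26980 and 10144 in replicates 1, 2 and 3. Replicate 2 thus ranked it far below the others.

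Inside NaPi-T a region 5.131 kb downstream of the CG10209 start, and 2305 bp into NaPi-T from its nearer start, had a pooled signal of 140 and rank 9229. Its ranks in replicates 1, 2 and 3 were 8774, 11463 and 10641, closer together than those of the CG10205 region. At the NaPi-T starts themselves (14845540 and 14845874) the IDR, pooled, replicate 1 and replicate 2 lists had no region within 500 bp, and replicate 3 had 1 of rank 25052. The remaining pooled regions lay at 3.645 kb (rank 19475), 12.257 kb (rank 12260) and 12.502 kb (rank 12214) and matched 2 of the 3 replicates each.

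Further upstream the starts had little. At CG33506 the only region within 500 bp was in replicate 2, 140 bp upstream of its start, at rank 25028 of 30000. U3-55K, a gene of the U3 particle that processes ribosomal RNA, had none in any list, and its nearest pooled summit was 5413 bp away. A region in replicate 2, 19.597 kb upstream of CG10209 and inside Pcf11, a gene for messenger RNA 3′ end formation, ranked 17658. Of the 9 genes with a start in the window, 5 (CG10209, SMC2, Ercc1, Ciao1 and HPS1) had an IDR summit within 500 bp, from 3 peaks, where 21.5% of all coding genes have one, and CG10205, NaPi-T, CG33506 and U3-55K had none.

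Every IDR peak of the locus recurred. All 3 IDR peaks had a summit within 150 bp in all 3 replicates, as did 84.9% of IDR peaks. Of the 10 pooled regions, 6 had one in all 3 and 4 in 2 of them, against 32.9% and 34.0% of all pooled regions. The 6 include the 3 IDR peaks, which were selected on these same replicates. Regions with no pooled summit within 150 bp numbered 7 of 17 in replicate 1, 6 of 14 in replicate 2 and 6 of 14 in replicate 3. Over the whole lists these shares were 40.9% in replicate 1, 36.1% in replicate 2 and 28.2% in replicate 3. Regions with −log10 q of 2 or more, a q of 0.01, numbered 5 in the pooled list, 4 in replicate 1, 3 in replicate 2 and 4 in replicate 3. Over the whole lists, 26.4% of pooled, 14.3% of replicate 1, 30.6% of replicate 2 and 30.1% of replicate 3 regions reach it. The 3 IDR peaks sat at the highest −log10 q of every list, as 91.5% of IDR peaks do in theirs, so q does not rank them. That highest value was reached by 19.2% of pooled, 8.01% of replicate 1, 15.8% of replicate 2 and 21.3% of replicate 3 regions.

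The number of IDR peaks was not unusual for a stretch of this length. At least 3 lay in 45.5% of the windows of equal length centred on coding genes, and the median was 2. At least as many pooled regions (10) lay in 53.6% of windows, at least as many replicate 2 regions (14) in 43.1% and at least as many replicate 3 regions (14) in 32.5%. At least as many replicate 1 regions (17) lay in 9.29% of windows, against a median of 9 (quartiles 6 and 13). The count in replicate 1 was therefore in the upper part of its range, and those of the other lists were nearer the middle. Replicate 1 also had the fewest regions with −log10 q of 2 or more in the whole list, 4296 against 9183 in replicate 2 and 9015 in replicate 3, and its part in the count was not tested.

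**Figure D4:**
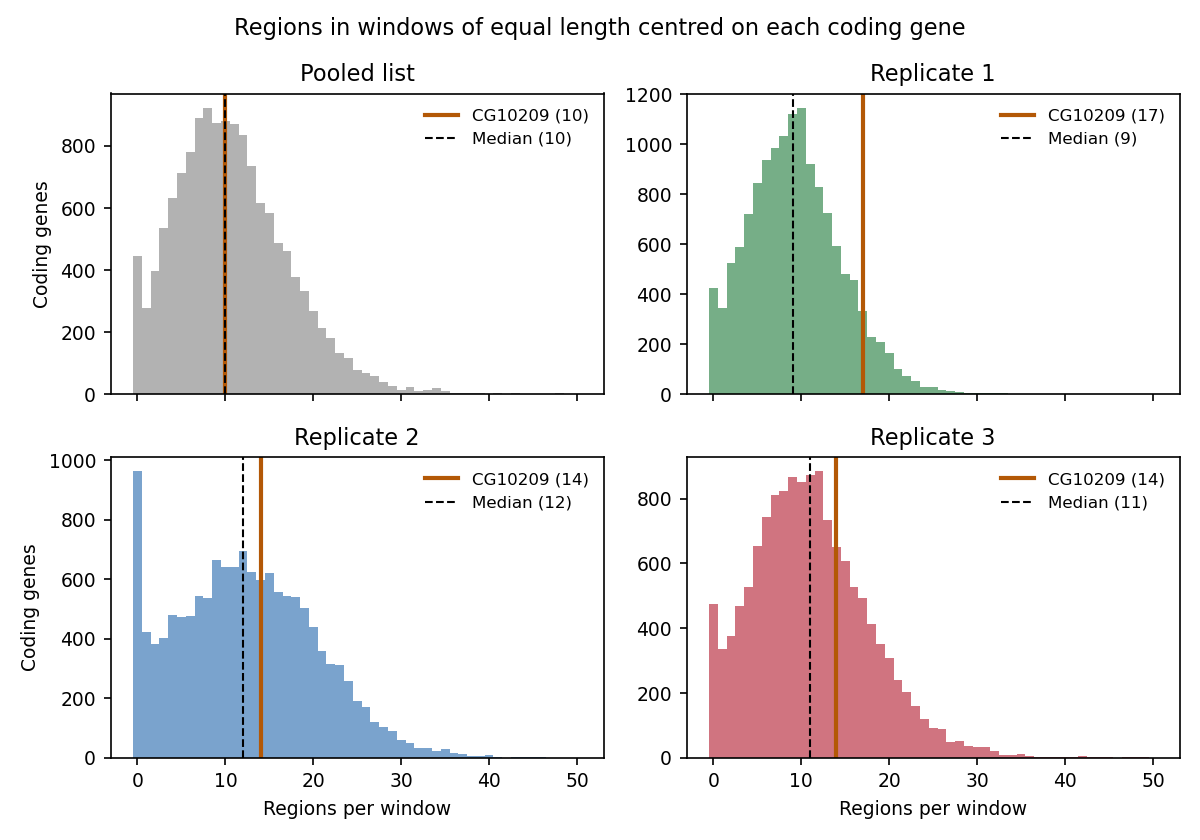
Number of coding genes (vertical axis) by the number of regions in a 42303 bp window centred on the gene (horizontal axis), for the pooled list and each replicate; the solid line marks CG10209 and the dashed line the median. CG10209 is at the median of 10 in the pooled list and above it in replicate 1 (17 against 9), replicate 2 (14 against 12) and replicate 3 (14 against 11).

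The replicate 1 regions also had edges. All 17 lay between 15.705 kb downstream and 6.953 kb upstream of the CG10209 start, a span of 22.7 kb, and the next regions of that list were at 36.8 kb downstream and 30.6 kb upstream. Most were weak: 4 of the 17 had −log10 q of 2 or more, and none of those lay further downstream than 8 bp. The region at the downstream edge had −log10 q of 1.212 in replicate 1 and 1.645 in the pooled list. Regions below this limit thus drew the downstream edge. The pooled list had nearly the same edges, but it is derived from all 3 replicates and so is not independent of replicate 1. Its 10 regions lay between 15.744 kb downstream and 6.979 kb upstream, and its next regions at 37.8 kb and 22.9 kb. Replicates 2 and 3 did not share both edges: replicate 2 had regions out to 19.597 kb upstream, and replicate 3 out to 22.153 kb downstream. The next IDR peaks were 60.5 kb downstream and 50.6 kb upstream of the start. Empty stretches were not confined to these edges. Replicate 1 also had 0 regions from 50 to 40 kb upstream and from 50 to 60 kb downstream. From 70 to 60 kb and from 60 to 50 kb upstream it had 7 and 5. How common such gaps are around other genes was not measured. Whether the 22.7 kb span matches the DNA carried by the transgene was not tested, since the labels do not give its extent.

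**Figure D5:**
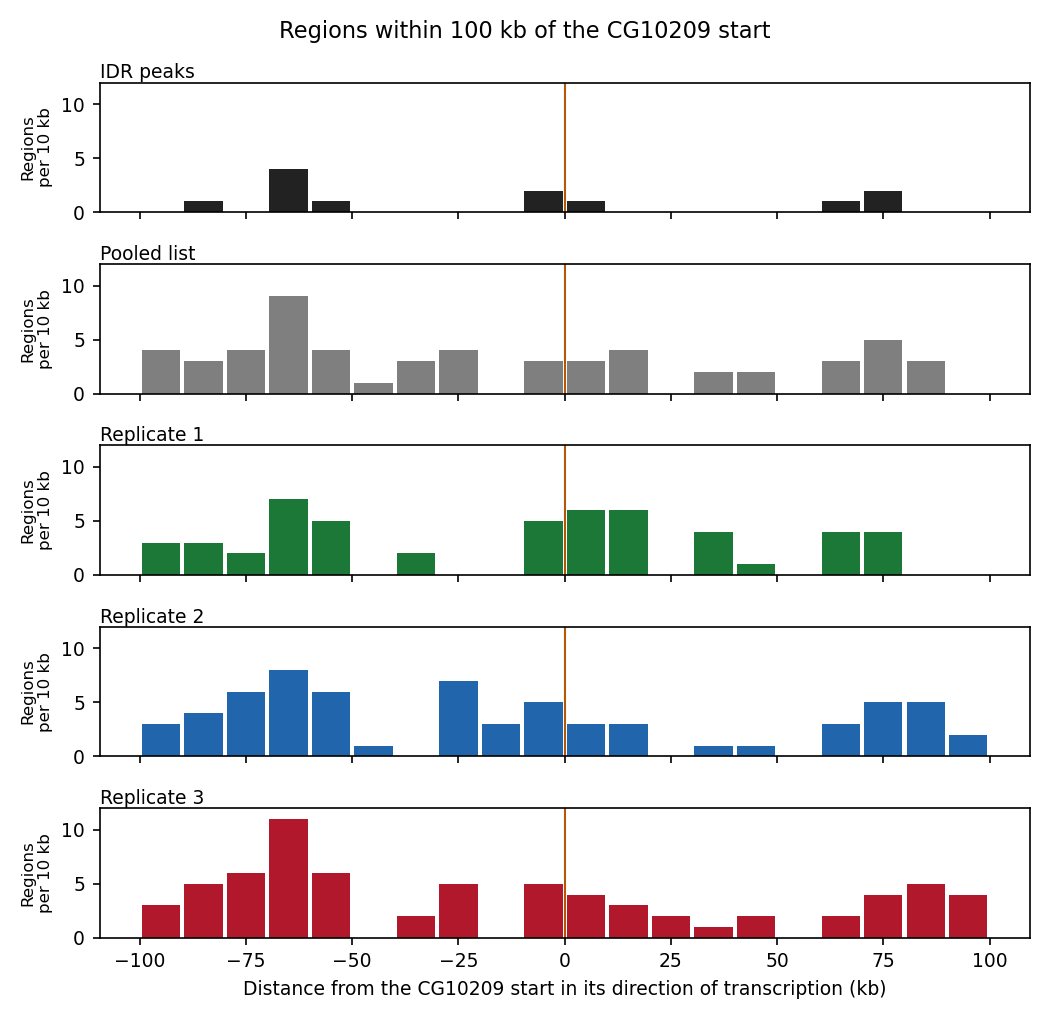
Regions per 10 kb (vertical axis) against distance from the CG10209 start in kb (horizontal axis, upstream to the left, line at the start) over 100 kb on either side, in 5 lists. IDR peaks occur only in the 2 bins next to the start between 50 kb upstream and 60 kb downstream. Replicate 1 has 5, 6 and 6 regions in the 3 bins from 10 kb upstream to 20 kb downstream and 0 in the bins beside them. It also has 7 and 5 in the bins from 70 to 50 kb upstream and 0 in the bin from 50 to 40 kb upstream.

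The summits near CG10209 held 1 of the 7 short motifs looked for, which with 3 peaks describes the locus and does not set it apart. Of 7 words searched on both strands in the 100 bp either side of the 3 IDR summits, TTTAAAAA occurred once, 5 bp from the summit at SMC2 and Ercc1, and 10.8% of IDR peaks hold it. There were no matches to CACTGAGA (3.69% of IDR peaks), CACTGTGC (3.9%), the DNA replication-related element TATCGATA (2.54%), the GAGA factor word GAGAG (21.6%), the Zelda word CAGGTAG (0.856%) or the TATA box word TATAAA (36.8%). None of the 7 was found at the CG10209 summit itself. None of the 7 words contains another. The absence of a word says only that its letters are not in that window.

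The CG10209 summit was poorer in A and T than the neighbouring summits. A and T made up 51.2% of the 201 bases centred on it, 66.7% at SMC2 and Ercc1 and 64.7% at Ciao1 and HPS1. The median over IDR peaks was 65.2% (quartiles 60.2 and 69.7), and 5.5% of IDR peaks had as few A and T bases as CG10209.

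The promoters whose ranks in the 3 replicates were most like those of CG10209 were found among 3201 other coding genes with a promoter region in every replicate. Stt3A, the catalytic subunit gene of an enzyme that attaches sugar chains to proteins, and bves, a gene of the Popeye family of membrane proteins, share 1 region on X. Its ranks were 231, 74 and 117 in replicates 1, 2 and 3, a mean absolute difference of 0.077 in log10 rank. CG2310 and Diedel, the latter a gene of a secreted immune regulator, share a region on 3R with ranks of 179, 36 and 106 (difference 0.088). The fifth, sbb, a gene of a transcriptional corepressor on 2R, had ranks of 217, 75 and 100 (difference 0.10). Their ranks among IDR peaks, which pool the same replicates, were 127, 86 and 112 in that order.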

How the data were processed

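ChIP-seq regions from 3 replicates of 1 group were analysed. Per the deposited file descriptions, the authors called regions on each replicate and on all 3 together against 1 control alignment in dm6, gave lists of 30000 with background included, and selected peaks by IDR. The deposited signal values are the authors' own, on a scale that differs between lists, and the deposited −log10 q values reach a ceiling in each list. Aligner, peak caller and IDR cutoff: not given in the sources used here. Without read counts the depth is unknown. Chromatin fragments of 200 to 800 bp, per the labels' protocols, limit positional precision.

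Regions were ranked by signal in Python 3.11.15 (pandas 2.3.3). Genes and starts came from Ensembl release 115 on 7 arms without transposable elements (18277 genes), and bases from genome Release 6, the build of dm6. Replicates shared 0 identical regions. Per the labels, each replicate is a biosample of its own, taken from the same line. Distances are from summits, a promoter being within 500 bp. Window counting and summit matching were tested on simulated data. Members, motifs and lists were chosen with earlier results of these data known. The comparisons of base composition, signal ratios, peak widths and the outer edges of the regions were added after the values were seen. Named genes were CG10209, those with starts in the window or nearest its regions, and the 5 most alike in rank. Files in dm3 coordinates were not used. Alternatives changed windows, overlaps, thresholds and replicates.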

Additional observations from a re-analysis of the deposited data

How the results depend on the processing

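The count of 3 IDR peaks was the same with windows of 10 and 50 kb and with any overlap. Their ranks fix it among the 3153 peaks of highest signal. Each also overlapped a top-ranked region of both other replicates when 1 was left out (3 to 3), but IDR was not rerun, so this does not test stability. Of 34 alternatives to 10 results, 23 left the value within 1.5 times or 1 SD. With −log10 q of 2 or more, regions fell to 5 in the pooled list, 4 in replicate 1, 3 in replicate 2 and 4 in replicate 3, a limit that 26.4%, 14.3%, 30.6% and 30.1% of the whole lists reach. The 50 kb window held 22 pooled regions and 24 each in replicates 2 and 3, and the 10 kb window 9 in replicate 2. Ranked by q, with ties averaged, the CG10209 promoter stood at 7.52% of the list, since many regions share the highest q. Leaving out 1 replicate gave promoter ranks of 0.278% to 0.578% and summit SDs of 0 to 18.4 bp, 0 being without replicate 2. The pooled regions matched in all 3 replicates numbered 4 with summits within 50 bp in place of 6. They numbered 9 with any overlap and 8 with an overlap of 50% of both regions. At 200 bp either side, 2 motif matches by peak were found in place of 1. No paired analysis was possible because there is only 1 group. Read depth is unknown, so no interval for a signal can be given.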
